A study of Rattus norvegicus with 24 samples.

Results

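The nuclear-encoded subunits of oxidative phosphorylation were followed with age and learning in hippocampal CA1, the pyramidal cell field, of male rats of the Long-Evans strain. They were taken by name: the gene families of subunits of complexes I to V of the inner mitochondrial membrane, without assembly factors. The names selected 81 genes on the array, of which 73 passed a filter on low signal (log2 over 4 in at least 6 arrays), among 9076 genes measured in all. Complex I was represented by 33 of 34 genes, complex II by 4 of 4, complex III by 8 of 8, complex IV by 12 of 19 and complex V by 16 of 16. Each gene is represented by the brightest of its probe sets on average. The values are log2 signals, so a difference of 1 stands for a factor of 2, and the signal of one probe set is not comparable with that of another.

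Total RNA of microdissected CA1 tissue was hybridised to 23 genome-wide rat arrays, 1 per biological replicate. The young group had 9 rats of 6 months. The aged rats were 24 to 26 months old, untreated and individually housed like the young ones. Their learning was scored in the Morris water maze, where a rat must find a hidden platform. It fell within the range of the young rats in 6 animals (aged unimpaired) and was worse in 8 (aged impaired). A further aged unimpaired array was omitted by the submitters after quality control and held no values. Young replicate 9 was used as labelled, although its column stands where an aged unimpaired replicate 6, absent from the labels, would stand.

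In oxidative phosphorylation, complex I takes electrons from NADH and complex II takes them from succinate. Complex III passes them to cytochrome c, and complex IV hands them to oxygen. Complexes I, III and IV pump protons, and complex V, the ATP synthase, uses their return to make ATP. A few subunits are made from the mitochondrial genome, but most are nuclear genes whose products are imported. Neurons depend on this pathway for ion pumping and synaptic transmission.

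The 8 genes left out were mostly tissue isoforms. Cox6a2, Cox7a1 and Cox8b are the heart and skeletal muscle forms, Cox6b2 and Cox7b2 are testis forms, Cox4i2 is best known from lung and low oxygen, and Ndufa4l2 is induced by low oxygen. Their mean signals lay between 1.74 for Cox6a2 and 3.72 for Cox7a1. Ndufb8, an accessory subunit of complex I, had a mean signal of 2.94 from its 1 probe set. Of these 8 genes, only Cox7a1 exceeded a signal of 4 in any array, and it did so in 1. The widely expressed forms Cox4i1, Cox6a1, Cox6b1, Cox7b, Cox8a and Ndufa4 passed the filter, as did Cox7a2l, a relative of Cox7a1. Ndufa4 carries a complex I name and is counted here with complex IV, of which its product is a subunit. Cox6c-ps1, a pseudogene that the names bring in, had a mean signal of 4.74, the lowest of the 73 members.

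No member differed between aged and young CA1 past the threshold. With limma and Benjamini-Hochberg adjustment over all 9076 genes, 0 of 73 members were called at an adjusted p under 0.05, against 3.71% of all genes. At an unadjusted p under 0.05, 3 members were higher in aged CA1 and none lower, where 15.3% of all genes passed. These were Cox5a, Ndufs7 and Sdha. The aged and young arrays overlapped in every member, while they did not overlap in 0.176% of all genes. The estimates were narrow: in 72 of 73 members the 95% interval of the difference lay within 0.25 of 0 on the log2 scale, as it did in 72.6% of all genes and in 90.1% of the genes with a mean signal over 10, where 64 of the 73 members lie. The exception was Cox5a. Over the members, the intervals ran from -0.14 to 0.44.

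**Figure D1:**
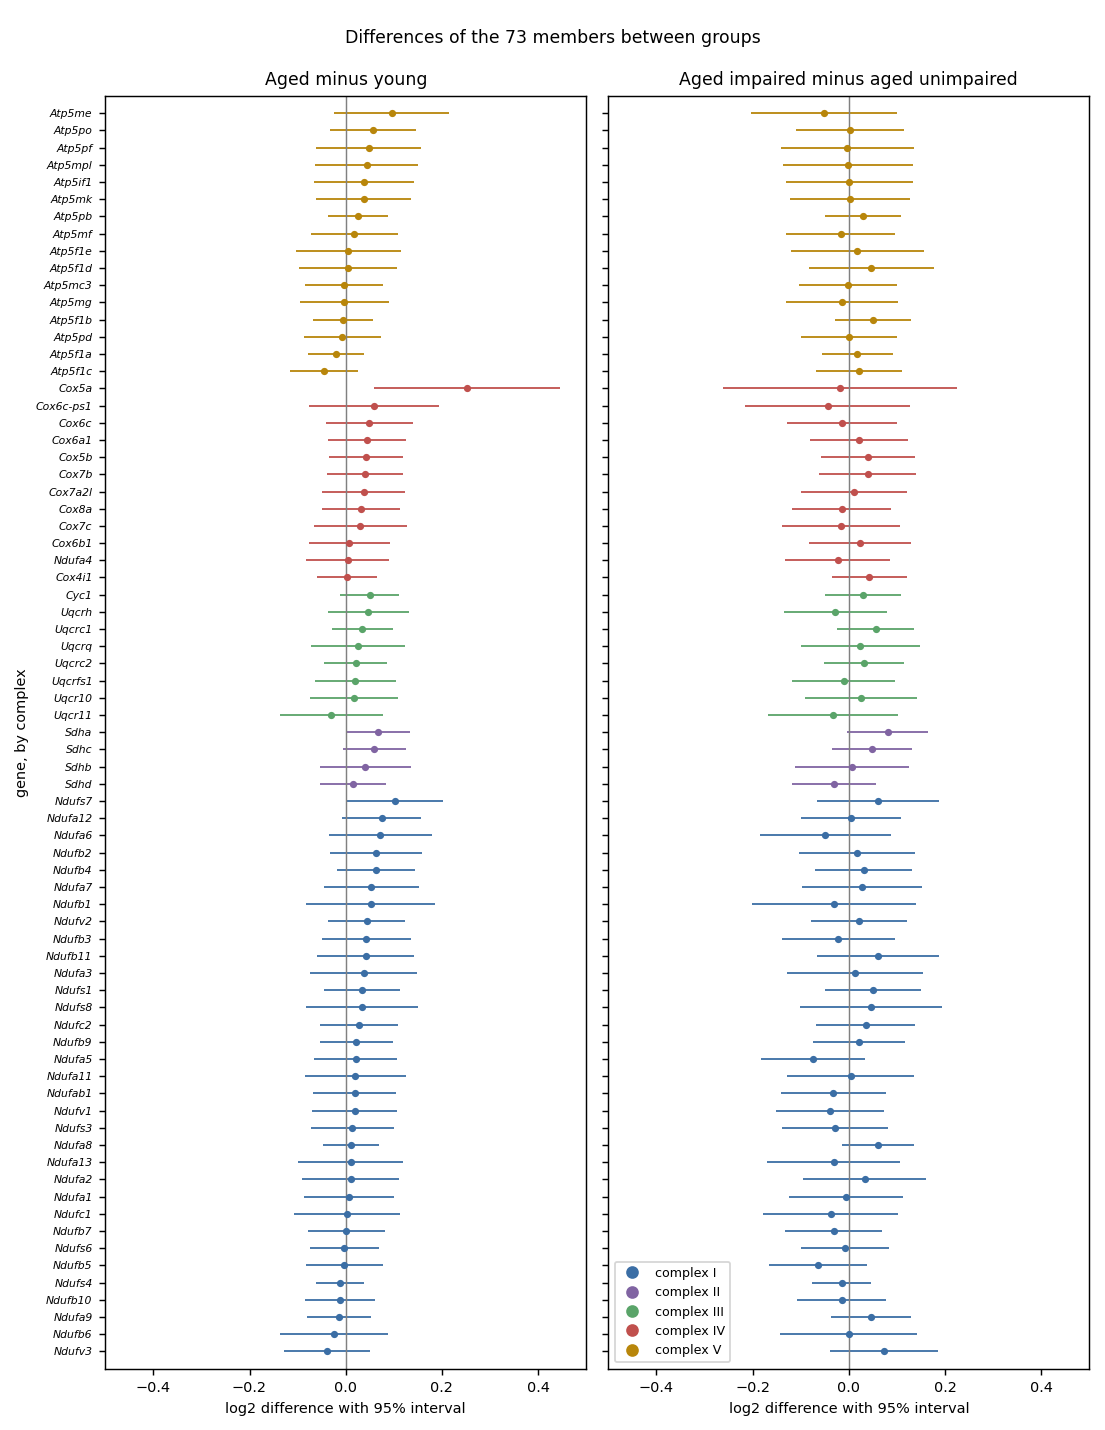
Log2 differences (x axis) with 95% intervals of the 73 members (y axis, grouped and coloured by complex) for aged minus young on the left and aged impaired minus aged unimpaired on the right. The points lie near 0 in both panels, and Cox5a stands apart on the left at 0.25.

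The estimates leaned to one side by a small amount. In the deposited values, 59 of 73 estimates (80.8%) were above 0 for aged against young, with a median of 0.025, beside 56.1% and a median of 0.011 over all genes. Arrays were also centred, each on its median over the 9076 genes measured and not over all probe sets. Then 37 of 73 (50.7%) were above 0, with a median of 0.0019, beside 43.4% and -0.012 over all genes. Under quantile normalization the count was 46 of 73 (63.0%). Young replicate 1 weighed heavily: without it, 42 of 73 (57.5%) were above 0, with a median of 0.0097, beside 54.8% and 0.0095 over all genes. The medians given next for complexes I, IV and V were 0.0034, 0.015 and -0.0050 without that array, and that of complex III was 0.0095 without young replicate 5.

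Complex I, the largest of the complexes, had 26 of 33 estimates above 0 for aged minus young, with a median of 0.020, and 14 of 33, with a median of -0.0031, when arrays were centred on their median. Its highest estimate was that of Ndufs7, the iron-sulfur subunit next to the site where ubiquinone is reduced. Its signal had a lowest, median and highest value of 10.34, 10.51 and 10.75 in young, 10.50, 10.62 and 10.66 in aged unimpaired and 10.45, 10.67 and 10.84 in aged impaired arrays. The groups overlapped, with the highest array in the aged impaired group and the lowest in the young group. Ndufs7 was higher in aged CA1 by 0.10 ± 0.048 (SE), with an adjusted p of 0.313. Ndufv1, which binds NADH, differed by 0.018 ± 0.043, and Ndufs1, the iron-sulfur subunit next to it in the electron path, by 0.035 ± 0.038. Both differences were smaller than their standard errors.

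Among the accessory subunits of complex I, which surround the catalytic core, the lowest estimate was that of Ndufv3. Its lowest, median and highest signals were 9.08, 9.24 and 9.26 in young, 9.06, 9.11 and 9.22 in aged unimpaired and 9.01, 9.17 and 9.42 in aged impaired arrays. The aged impaired arrays spanned the range of both other groups. Ndufv3 differed by -0.038 ± 0.043. Ndufs4, whose loss in mice and humans causes a severe encephalopathy, had the smallest spread of all members, with a within-group SD of 0.035. It ranged from 8.25 to 8.38 in young, 8.29 to 8.35 in aged unimpaired and 8.27 to 8.38 in aged impaired arrays, and differed by -0.012 ± 0.024. The 6 core subunits measured were all above 0 as deposited, from 0.014 to 0.10, and 4 were with arrays centred. Of the 27 accessory subunits, 20 were above 0 as deposited, over a range from -0.038 to 0.075, and 10 were with arrays centred.

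In complex II, all 4 estimates were above 0 as deposited, with a median of 0.050, and 3 of 4, with a median of 0.027, when arrays were centred. Sdha, the flavoprotein that oxidises succinate, had lowest, median and highest signals of 11.36, 11.45 and 11.60 in young, 11.46, 11.48 and 11.52 in aged unimpaired and 11.46, 11.57 and 11.66 in aged impaired arrays. The aged unimpaired arrays lay inside the young range, and the aged impaired arrays reached above it. Sdha was higher in aged CA1 by 0.067 ± 0.032, with an adjusted p of 0.317. Sdhc, a membrane anchor, differed by 0.060 ± 0.032, and Sdhb, which carries the iron-sulfur clusters, by 0.041 ± 0.045. Sdhd, the other anchor, differed by 0.015 ± 0.033, and by -0.0082 when arrays were centred on their median.

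In complex III, 7 of 8 estimates were above 0 as deposited, with a median of 0.023, and 4 of 8, with a median of -1.81e-04, when arrays were centred. Cyc1, the cytochrome that reduces cytochrome c, was highest, at 0.049 ± 0.030, with means of 11.44 ± 0.06 (SD, n = 9) in young and 11.49 ± 0.06 (SD, n = 14) in aged arrays. Uqcrc1, a large core protein facing the matrix, differed by 0.034 ± 0.031. Uqcrfs1, the Rieske iron-sulfur protein, differed by 0.019 ± 0.041 in the deposited values and by -0.0039 with arrays centred on their median. Uqcr11, a small accessory subunit, had the lowest estimate, at -0.030 ± 0.052. The young and aged arrays overlapped in each of these genes.

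In complex IV, all 12 estimates were above 0 in the deposited values, with a median of 0.039, and 9 of 12 when arrays were centred or quantile normalized, with Cox4i1, Cox6b1 and Ndufa4 below 0. Cox5a, which assembles beside Cox4 early in the building of the enzyme, had the largest estimate of all members. Its lowest, median and highest signals were 8.01, 8.44 and 8.89 in young, 8.55, 8.75 and 8.89 in aged unimpaired and 8.45, 8.73 and 9.01 in aged impaired arrays. Young replicates 4, 5 and 7 lay at 8.80, 8.89 and 8.82, and the other young arrays lay between 8.01 and 8.49; the aged arrays began at 8.45. Cox5a was higher in aged CA1 by 0.25 ± 0.093, a difference of 19.1% on the linear scale, with an adjusted p of 0.163. It was also the most variable member, with a within-group SD of 0.23. With a measure of RNA quality as a covariate (3 prime minus 5 prime signal of control transcripts), its adjusted p was 0.0492, and over the alternatives it ranged up to 0.341.

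The other complex IV genes lay close to 0. Cox4i1, the widely expressed form of subunit 4, had lowest, median and highest signals of 13.41, 13.46 and 13.57 in young, 13.28, 13.47 and 13.53 in aged unimpaired and 13.43, 13.52 and 13.52 in aged impaired arrays. It differed by 0.0035 ± 0.030, a value that several alternatives turned below 0. Cox6a1 differed by 0.044 ± 0.039, Cox8a by 0.031 ± 0.039 and Cox7a2l, whose product helps to join complexes III and IV, by 0.037 ± 0.042. Cox6b1, which faces cytochrome c, differed by 0.0071 ± 0.041, and Ndufa4 by 0.0042 ± 0.042. None of these genes passed the unadjusted threshold.

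In complex V, 10 of 16 estimates were above 0 as deposited, with a median of 0.011, and 7 of 16, with a median of -0.012, when arrays were centred. Of the 5 subunits of the F1 head and its central stalk, 2 were above 0 as deposited and 0 with arrays centred. Of the other 11, which form the ring, the side stalk and the membrane part or inhibit the enzyme, 8 and 7 were. Atp5f1a and Atp5f1b, the alpha and beta subunits that form the catalytic sites, differed by -0.020 ± 0.028 and -0.0051 ± 0.030. Atp5f1c, the rotating gamma subunit, had lowest, median and highest signals of 12.34, 12.45 and 12.58 in young, 12.36, 12.40 and 12.46 in aged unimpaired and 12.27, 12.44 and 12.54 in aged impaired arrays. The aged unimpaired arrays lay inside the range of the young ones. Atp5f1c had the lowest estimate of all members, at -0.045 ± 0.034. Atp5me, a membrane subunit at the contact between paired synthases, had the highest of complex V, at 0.096 ± 0.058.

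**Figure D2:**
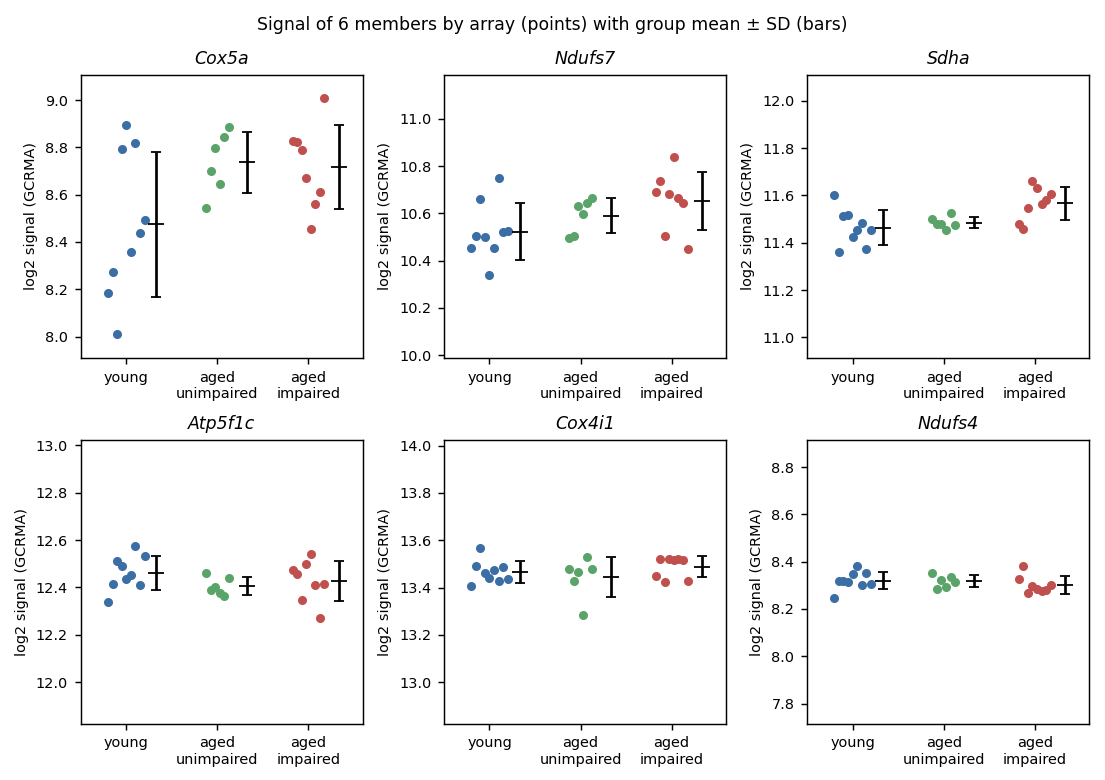
Log2 signal (y axis) of 6 members in each array (points) of the young, aged unimpaired and aged impaired groups (x axis), with the group mean and SD (bars), on axes of equal span. Cox5a spreads from 8.01 to 8.89 in young arrays, while Ndufs4 stays between 8.25 and 8.38.

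The aged groups were also set against the young group separately; both comparisons share the young arrays. In aged impaired against young CA1, limma called 0 of 73 members, against 3.8% of all genes, and 4 passed the unadjusted threshold, all higher, against 16.5% of all genes. Sdha differed by 0.10 ± 0.037 with an adjusted p of 0.139, Ndufs7 by 0.13 ± 0.055 and Cox5a by 0.24 ± 0.11, and Sdhc was the fourth, at 0.080. Of the estimates below 0, those with the smallest p were Atp5f1c, at -0.036 ± 0.039, Uqcr11, at -0.044 ± 0.059, and Ndufs4, at -0.019 ± 0.027. The median of the members was 0.034, beside 0.0079 over all genes. It was 0.016 with arrays centred on their median, 0.012 without young replicate 1 and 0.054 without aged impaired replicate 3.

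In aged unimpaired against young CA1, limma called 0 members, against 0.76% of all genes, and 1 passed the unadjusted threshold, against 9.84% of all genes. This was Cox5a, at 0.26 ± 0.11 with an adjusted p of 0.43. The next were Atp5me, at 0.12 ± 0.071, and Ndufa6, an accessory subunit of complex I, at 0.10 ± 0.064. Of the estimates below 0, Ndufv3 had the smallest p, at -0.080 ± 0.053, followed by Atp5f1c, at -0.057 ± 0.042, and Ndufa9, an accessory subunit near the ubiquinone site, at -0.041 ± 0.040. The members' median was 0.024, beside 0.015 over all genes, and -0.0073 beside -0.016 with arrays centred on their median. It was 0.0049 without young replicate 1.

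The comparison of the aged groups asks which members differ with learning at the same age. Limma called 0 members and 0% of all genes, and 0 members passed the unadjusted threshold, against 6.93% of all genes. The median of the members was 0.0040, with 41 of 73 estimates (56.2%) above 0, beside -0.0052 and 47.4% over all genes. Leaving out 1 array at a time gave medians from -0.0086, without aged impaired replicate 5, to 0.032, without aged impaired replicate 3. The member with the smallest p was Sdha, higher in aged impaired arrays by 0.081 ± 0.041 with an adjusted p of 0.726. Ndufa8, an accessory subunit, was at 0.061 ± 0.036 and Uqcrc1 at 0.056 ± 0.039. Of the estimates below 0, those with the smallest p were Ndufa5, at -0.075 ± 0.053, Ndufb5, at -0.064 ± 0.049, and Ndufa6, at -0.049 ± 0.066, all accessory subunits of complex I. In 72 of 73 members, the 95% interval lay within 0.25 of 0; the exception was Cox5a, with an interval from -0.26 to 0.23. Without young replicate 1 and aged impaired replicate 3, described next, 58 of 73 estimates were above 0, with a median of 0.032. These arrays were picked for their low member values, so leaving out the aged impaired one could only raise the average estimate. Leaving out young replicate 1 alone kept 41 of 73 above 0 and the median at 0.0040. In the same comparison, all 6 markers of CA1 pyramidal cells were below 0, with a median of -0.21; 4 passed the unadjusted threshold and limma called 0. Their part in the members' differences was not tested.

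Members of different complexes often lay on the same side of their means in an array. For each array, the deviation of a gene from its own mean over the 23 arrays was averaged over the genes of a complex. All 5 complexes lay on the same side of 0 in 17 of 23 arrays, 7 below and 10 above. The average over all genes tested itself ran from -0.11 to 0.094 over the arrays. This count rests on the deposited values, and no such count was made for other gene sets. Aged impaired replicate 8, where all genes tested averaged -0.11, is among the arrays counted below. Averaged over all 73 members, the lowest arrays were young replicate 1, at -0.16, and aged impaired replicate 3, at -0.13. The highest was aged impaired replicate 5, at 0.10, where all genes tested were at 0.094 and the other genes with a mean signal over 10 at 0.083. With arrays centred on their median the highest array was aged impaired replicate 8, at 0.069, and under quantile normalization aged impaired replicate 2, at 0.072. In young replicate 1, 67 of 73 members were below their own mean, and in aged impaired replicate 3, 62 were. In aged impaired replicate 5, 67 were above.

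As an average, the members varied more within groups than the averages of larger gene sets did. The within-group SD of the averaged deviation was 0.067 for the members, 0.044 for all genes tested and 0.041 for the 1878 other genes with a mean signal over 10. These sets differ in size, and an average over more genes varies less. The median within-group SD of single members was 0.094, beside 0.138 over all genes and 0.10 over the genes with a mean signal over 10. In young replicate 1, the other genes of high signal deviated by -0.0067, and in aged impaired replicate 3 by 0.026. The deviations of young replicate 1 and aged impaired replicate 3 were -0.15 and -0.14 with arrays centred on their median, where the next lowest array was at -0.076. They were -0.15 each under quantile normalization, where the next lowest was at -0.038.

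**Figure D3:**
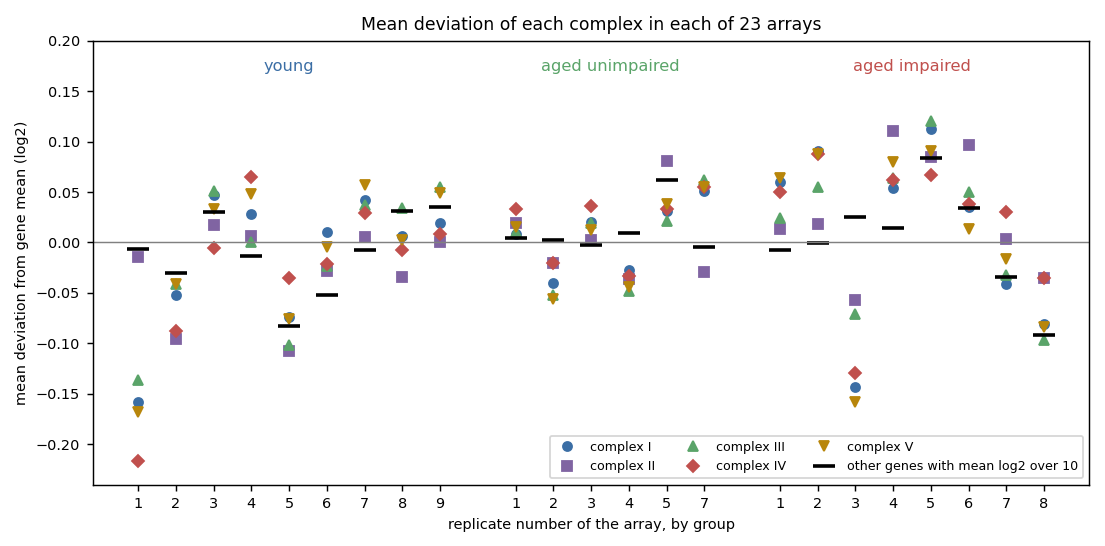
Mean deviation from the gene mean (y axis, log2) of each complex (coloured symbols) and of the 1878 other genes with a mean log2 signal over 10 (black dashes) in each of the 23 arrays (x axis, by group and replicate number). In young replicate 1 and aged impaired replicate 3, complexes I, III, IV and V lie far below the dashes, which stay near 0.

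In these 2 arrays the deviation was not shared by all subunits. Of the members, 60 were below their own mean in both, and 4 in neither: Atp5f1a, Atp5f1b, Sdha and Uqcrc1. In young replicate 1, Atp5f1b deviated by 0.0066, Atp5f1a by 0.016, Uqcrc1 by 0.017 and Sdha by 0.098. The lowest were Cox5a, at -0.44, Ndufb1, at -0.42, Cox6c-ps1, at -0.40, Ndufb6, at -0.34, Atp5pf, at -0.30, and Ndufb11, at -0.29. In aged impaired replicate 3, Atp5pf was lowest, at -0.32, followed by Ndufa13, at -0.30, Cox6c, at -0.30, and Atp5mk, at -0.29. These genes were picked for their values in these arrays.

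Within complexes I and V, the average differed between groups of subunits. The 6 core subunits of complex I in young replicate 1 averaged -0.071 and the 27 accessory subunits -0.18; in aged impaired replicate 3 the values were -0.051 and -0.16. In each of these arrays 5 of the 6 core subunits were below their own mean, and of the accessory subunits 26 and 25. The core average was lower, at -0.17, in another array. The 5 subunits of the F1 head and central stalk of complex V averaged -0.095 and -0.062 in these arrays, and the 11 others -0.20 in each. All 11 of these were below their own mean in both arrays, and 3 of the 5 F1 subunits were. Complex II, with 4 members, averaged -0.014 and -0.057. The division into core and accessory subunits follows their known roles, but was examined after the arrays had been seen, and no test was made of it.

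**Figure D4:**
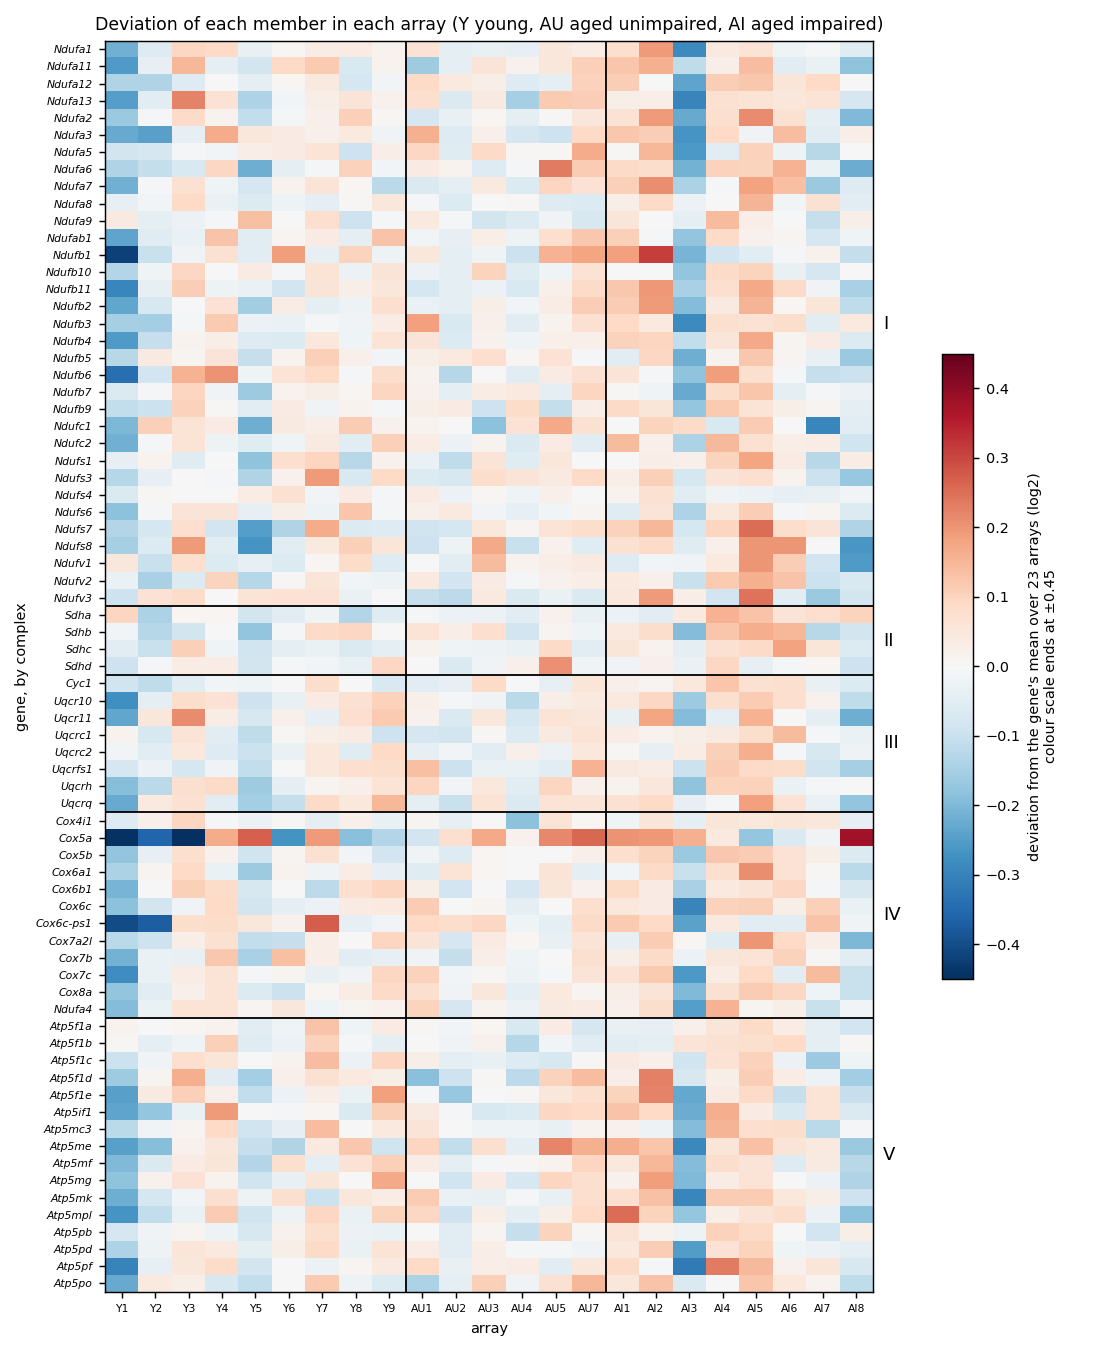
Deviation of each of the 73 members (rows, by complex) from its own mean in each of the 23 arrays (columns, by group), as colour from blue (below) to red (above) on a log2 scale. Y1 and AI3 are blue in most rows, AI5 is red in most rows, and Cox5a departs from most rows in AI3 and AI5.

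Cox5a was the lowest member in young replicate 1 but departed from most members in other arrays. In aged impaired replicate 3 it deviated by 0.16, while 62 members were below their mean, and in aged impaired replicate 5 by -0.17, while 67 were above. Its highest signal, 9.01, was in aged impaired replicate 8, where 62 members were below their mean. In that array all genes tested averaged -0.11. With arrays centred on their median, it had the highest average of the members, at 0.069.

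Several readings of tissue make-up and RNA were taken on the same arrays. In young replicate 1, the averaged deviation of 10 neuronal markers was -0.00060, that of 7 endothelial and pericyte markers was 0.35, the highest of all arrays, and that of 9 microglial markers was -0.22. In aged impaired replicate 3, the neuronal markers were at 0.042, while 7 oligodendrocyte markers, at 0.33, and 8 astrocyte markers, at 0.18, were the highest of all arrays. Other arrays came close without such low members. Astrocyte markers were at 0.178 in aged impaired replicate 5, where the members averaged 0.0995. Endothelial and pericyte markers were at 0.333 in young replicate 4 and 0.325 in aged impaired replicate 7, where the members averaged 0.034 and -0.021. The RNA quality measure, 3 prime minus 5 prime control signal, was 1.40 in young replicate 1 and 1.25 in aged impaired replicate 3. The range over all arrays was 1.15 to 1.55. The part of these readings in the members' values was not tested. In bulk tissue, fewer cells of a type and less RNA per cell cannot be told apart.

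Between groups, marker genes of astrocytes and microglia were the ones most often called. For aged against young, limma called 3.71% of all genes. Of 8 astrocyte markers, limma called Gfap and S100b higher in aged CA1, and of 9 microglial markers it called Aif1, C1qa, C1qc and Trem2 higher. Of 10 neuronal markers it called 1 lower, Stmn2, by a log2 difference of -0.15, and of 7 endothelial and pericyte markers 1 lower, Slco1c1. It called none of 9 interneuron, 7 oligodendrocyte and 6 CA1 pyramidal cell markers that passed the filter. The averaged deviation of the neuronal markers ranged from -0.026 to 0.060 in young, -0.096 to 0.076 in aged unimpaired and -0.23 to 0.11 in aged impaired arrays. For the microglial markers the ranges were -0.45 to -0.017, -0.060 to 0.20 and -0.097 to 0.30. For the CA1 pyramidal markers they were -0.27 to 0.23, -0.041 to 0.23 and -0.28 to 0.052. Every one of the 10 neuronal markers had a mean signal of at least 9.78, and each CA1 marker that passed the filter of at least 10.81. The part of these lists in the members' differences was not tested.

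The rest of the pathway was followed through fixed lists. Of 36 factors that assemble the complexes, none was called in any comparison. Their median for aged minus young was 0.017, beside 0.011 over all genes, of which limma called 3.71%. Of 17 enzymes of the citric acid cycle and pyruvate entry, none was called, with a median of 0.0058. COX1 and COX2, the catalytic complex IV subunits made from the mitochondrial genome, had mean signals of 14.73 and 15.20. Of 13 mitochondrial genome genes listed, these 2 were on the array. They differed by -0.020 ± 0.024 and -0.031 ± 0.025, both below 0, and neither passed the unadjusted threshold. All 12 nuclear complex IV genes, the pseudogene Cox6c-ps1 among them, were above 0 in the deposited values, and 9 were with arrays centred. The mitochondrial and nuclear genes were not tested against each other. COX1 and COX2 together deviated by 0.029 in young replicate 1, and in aged impaired replicate 3 by -0.010. The list of 16 mobile carriers, transporters and related genes also holds Atp5if1, a member counted in complex V. From this list, Etfb, which carries electrons from fatty acid oxidation, was called lower in aged unimpaired against young CA1. Its log2 difference was -0.23 ± 0.055 with an adjusted p of 0.0461 from limma, where 0.76% of all genes were called. None of 16 regulators was called. Among them, Ppargc1a, the coactivator of mitochondrial biogenesis, differed by 0.075 ± 0.055 for aged minus young, Tfam by 0.078 ± 0.072, Gabpa by -0.056 ± 0.087 and Yy1 by 0.020 ± 0.047. Nrf1 had a mean signal of 4.22, close to the filter.

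Promoters of the members were also searched for 3 motifs. RefSeq promoters of rat assembly GRCr8, from 250 bases before to 50 after the start, were found for 65 of the 73 members. On either strand, 6 members (9.23%) held CGCATGCG, the core of the palindrome bound by Nrf1, beside 1.81% of all 27457 promoters and 2.24% of the 19005 of protein-coding genes. The Ets core CCGGAAG, bound by Gabpa among others, was in 20 (30.8%), beside 9.22% and 11.2%. AAGATGGCG, bound by Yy1, was in 9 (13.8%), beside 1.93% and 2.29%. At least 1 of the 3 motifs was in 28 members (43.1%), beside 12.1% and 14.6%. Of the 6 members with the Nrf1 core, 4 were in complex V. In the 3 members that held both the Ets and the Yy1 motif, these did not overlap. The matches describe letters in the window, and no binding was measured. Shares among the 9076 genes measured in CA1 were not computed. Any relation of the motifs to the values of the members was not tested.

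Promoters are shown for genes that illustrate these motifs, which stand in capitals in either orientation. That of Atp5pf holds all 3, and that of Ndufa11 has overlapping copies of the Nrf1 core. That of Cox4i1 has a pair of Ets cores in reverse orientation, and that of Ndufs7 has the Yy1 motif. They lie at chr11:37375052-37375351 on the minus strand, chr9:1637364-1637663 on the plus strand, chr19:65630133-65630432 on the plus strand and chr7:10110449-10110748 on the minus strand of GRCr8. Each is written in the direction of its gene.
Atp5pf: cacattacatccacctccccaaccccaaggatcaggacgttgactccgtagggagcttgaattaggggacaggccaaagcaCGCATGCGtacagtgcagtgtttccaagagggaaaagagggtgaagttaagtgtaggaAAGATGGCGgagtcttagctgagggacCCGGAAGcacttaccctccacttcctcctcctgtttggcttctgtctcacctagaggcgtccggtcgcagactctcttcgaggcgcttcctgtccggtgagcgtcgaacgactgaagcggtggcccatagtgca
Ndufa11: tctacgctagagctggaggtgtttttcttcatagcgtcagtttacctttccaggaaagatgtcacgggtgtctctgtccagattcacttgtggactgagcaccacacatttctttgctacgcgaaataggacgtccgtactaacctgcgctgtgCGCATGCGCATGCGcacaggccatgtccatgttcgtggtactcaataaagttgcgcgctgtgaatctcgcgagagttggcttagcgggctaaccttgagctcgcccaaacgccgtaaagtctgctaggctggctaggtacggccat
Cox4i1: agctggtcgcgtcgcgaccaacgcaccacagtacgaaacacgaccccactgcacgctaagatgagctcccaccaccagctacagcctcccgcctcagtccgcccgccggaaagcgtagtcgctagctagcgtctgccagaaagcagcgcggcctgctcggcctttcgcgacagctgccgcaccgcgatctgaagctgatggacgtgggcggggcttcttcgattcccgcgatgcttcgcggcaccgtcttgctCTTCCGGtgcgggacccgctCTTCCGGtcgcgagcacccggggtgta
Ndufs7: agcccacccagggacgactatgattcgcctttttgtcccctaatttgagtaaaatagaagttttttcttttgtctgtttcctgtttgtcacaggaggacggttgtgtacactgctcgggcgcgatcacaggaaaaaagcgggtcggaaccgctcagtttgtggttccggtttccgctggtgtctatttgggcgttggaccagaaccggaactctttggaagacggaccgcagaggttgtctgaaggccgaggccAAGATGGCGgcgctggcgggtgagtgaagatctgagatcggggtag

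Of the members, 5 had a further probe set that passed the filter, a second reading of the same gene. For aged minus young, in a fit over 16201 probe sets, these gave -0.012 for Ndufa7, -0.14 for Ndufa9, -0.13 for Ndufv3, -0.044 for Sdhd and -0.073 for Uqcrc2. None was called, and the adjusted p lay between 0.509 and 0.938. For Ndufa7, Sdhd and Uqcrc2 the sign differed from that of the brighter probe set, at 0.053, 0.015 and 0.021. All 5 second probe sets were below 0 for aged minus young. For aged impaired minus aged unimpaired, that of Sdhd was at -0.12 ± 0.061, with an adjusted p of 0.76 from limma. Those of Ndufa7, Ndufa9 and Ndufv3 were at -0.034, -0.0014 and -0.0026, and that of Uqcrc2 was at 0.029.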

How the data were processed

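Male Long-Evans rats were grouped by their labels into 9 young, 6 aged unimpaired and 8 aged impaired arrays. The deposited values for 31099 probe sets were log2 signals. The authors produced them by GCRMA, per the submitters' processing notes; its version and settings are not given in the sources used here. Because GCRMA models background and equalises the arrays, low signals are compressed and a shift common to all genes is reduced. Averages over all genes tested still ran from -0.11 to 0.094 between arrays. In the alternatives, arrays were centred on their median over the 9076 genes measured, and quantile normalization used the same genes. Centring the arrays in this way moved the all-gene median for aged against young by -0.023. No scaling was added. The platform annotation gave 1 gene symbol to 20832 probe sets, several to 436 and none to 9831. Among the probe sets with several symbols, 7 paired a member's name with another symbol and were not used. A gene was its brightest probe set with log2 over 4 in at least 6 of 23 arrays.

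Models of the 3 group means were fitted with limma 3.58.1 in R 4.3.3 (lmFit, contrasts, eBayes) to 9076 genes, with Benjamini-Hochberg adjustment over all genes in each of 4 comparisons and a threshold of 0.05. In the aged mean every aged array counted equally. The pipeline was tested on simulated data. The number of arrays limits the precision; no batch or date was given in the labels. The members and lists were chosen with earlier results of these data known. Named were called members, in each comparison the 3 of smallest p on either side of 0, the highest and lowest of each complex, a panel of core subunits and isoform pairs; genes outlying in single arrays were chosen after their values were seen. Replicate numbers did not pair the arrays: over 20 same-numbered pairs, the correlation of deviations ran from -0.267 to 0.116. Alternatives covered the filter, probe sets, normalization, array weights, moderation, RNA quality, a replicate block, the threshold, the groups in the fit and leaving out arrays; the fit without young replicate 1 and aged impaired replicate 3 was chosen after seeing the data. Plots used matplotlib 3.10.9 under Python 3.11.15.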

Additional observations from a re-analysis of the deposited data

Results flagged for a closer look

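Single arrays stood apart within their group in 3 of the 102 group values examined over 28 named members and the complexes, where chance flags about 1 in 20. Ndufa4 in young replicate 1 was at 12.35, below the other young arrays, at 12.51 to 12.61; this is the array with the lowest mean over all members. Atp5f1a in young replicate 7 was at 12.62, above the other young arrays, at 12.44 to 12.53. Sdhd in aged unimpaired replicate 5 was at 11.03, above the others of its group, at 10.76 to 10.84; without that array the aged minus young difference of Sdhd was -2.86e-04 in place of 0.015.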

How the results depend on the processing

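Over 37 alternatives, 1695 of 1733 recomputed differences and counts kept their direction and their side of the threshold. The 324 recomputed medians moved by less than the within-group SD of the members' mean, 0.067, and 13 of them changed sign. The number of members called higher in aged against young CA1 was 1 with the RNA quality covariate (Cox5a, 0.27, adjusted p 0.0492 from limma) and 0 in the other alternatives; the cause was not tested. With a replicate block, Cox5a was at 0.25 with an adjusted p of 0.341 and no call of a member changed; the numbers do not pair the arrays. Values near 0 turned negative for aged against young as follows. With arrays centred on their median, Cox4i1 was at -0.020, Cox6b1 at -0.016, Ndufa4 at -0.019, Ndufv1 at -0.0051, Sdhd at -0.0082 and Uqcrfs1 at -0.0039, and the medians of complexes I, III and V were -0.0031, -1.81e-04 and -0.012. With quantile normalization, Cox4i1 was at -0.033, Cox6b1 at -0.014 and Ndufa4 at -0.0045. Without the pair of arrays with the lowest member values, they were at -2.01e-04, -0.0072 and -3.27e-04. Cox4i1 was at -3.09e-04 with the replicate block, -8.84e-04 with the RNA quality covariate and -3.88e-04 without the 3 arrays that correlated least with the rest. Sdhd was at -0.015 with the mean of its probe sets. Leaving out 1 array at a time gave -0.012 to 0.0078 for Atp5f1b, -0.0036 to 0.018 for Cox4i1, -0.019 to 0.021 for Cox6b1, -0.020 to 0.024 for Ndufa4 and -2.86e-04 to 0.028 for Sdhd. Cox5a ranged from 0.19 without young replicate 3 to 0.30 without young replicate 5. The members' median for aged against young was lowest among these, at 0.0097, without young replicate 1; it was 0.0019 with arrays centred and 0.0090 under quantile normalization. With only probe sets designed for 1 transcript, Atp5f1c had no value.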
